A study of Mus musculus with 23 samples.

Results

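Foxp2 heterozygous mice were compared with wild-type mice under the control injection of a cocaine experiment, so that the effect of the genotype could be read without the drug. The comparison took every array labelled as saline: 5 from animals of the genotype S321X/+ and 6 from wild-type animals, 11 of the 23 arrays in the series. All animals were on the strain C57BL6, all received saline by intraperitoneal injection, and the nucleus accumbens was taken as a tissue punch 1 h later, so the injection and its handling are shared by both groups. The heterozygous group held 2 males and 3 females and the wild-type group 3 males and 3 females, and the ages of the animals are not given in the sources used here. The labels name no Cre driver and no limit of the allele to a cell type. RNA was measured on Illumina MouseWG-6 v2 bead arrays, 1 array for each animal, as the brightness of a probe for each transcript. The remaining 12 arrays came from 6 heterozygous and 6 wild-type animals injected with cocaine at 15 mg/kg. They served here to estimate the spread between arrays and as a second, separate set of animals of the same genotypes.

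Foxp2 is a forkhead transcription factor, a protein that binds DNA through a forkhead domain and mostly represses its targets. It is made in spiny projection neurons of the striatum, in deep layers of the cortex and in the thalamus and cerebellum. Mutations of the human gene cause a disorder of speech, and mice and songbirds with less of the protein show altered vocal and motor learning. S321X names an allele with a premature stop codon, and a heterozygote carries it beside a normal allele. The nucleus accumbens is the ventral part of the striatum, and most of its neurons are GABA-releasing spiny projection neurons that carry dopamine D1 or D2 receptors.

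The saline arrays were of like quality in both groups. Between 16314 and 17649 probes were detected on each array, and the median intensity over all probes of an array lay between 15.9 and 30.7. Over all tested probes, and so with points that share the probe's own brightness, 2 heterozygous arrays correlated with r = 0.978 to 0.986, 2 wild-type arrays with r = 0.972 to 0.986, and a heterozygous with a wild-type array with r = 0.974 to 0.991. The X-chromosome transcript Xist was bright on 3 arrays of each genotype and dim on the others, the numbers of females and males that the labels give. Markers of the striatum were bright in both genotypes: Ppp1r1b, which encodes the dopamine-regulated phosphoprotein DARPP-32, had a log2 intensity of 13.98 ± 0.15 (SD, n = 5) in heterozygotes and 14.13 ± 0.12 (SD, n = 6) in wild type.

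No gene passed the adjusted test across all genes between the genotypes. With limma and Benjamini-Hochberg adjustment over all probes, 0 of 10138 genes (0%) had an adjusted p under 0.05, and the smallest adjusted p was 0.999. Before adjustment, 376 genes (3.71%) reached an unadjusted p under 0.05, of which 203 (2%) were higher and 173 (1.71%) lower in heterozygotes. The median log2 difference over all genes was 0.007, with 5325 genes higher and 4813 lower in mean. The precision behind this result was such that the 95% interval of the difference lay within 2-fold in both directions for 98.8% of genes and within 1.5-fold for 88.5%, with a median half-width of 0.25 log2 units (1.19-fold). A gene outside those shares could differ by more without being detectable with this number of arrays, which limits the precision. In the plot of all genes, most lie close to 0 on the x axis.

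**Figure D1:**
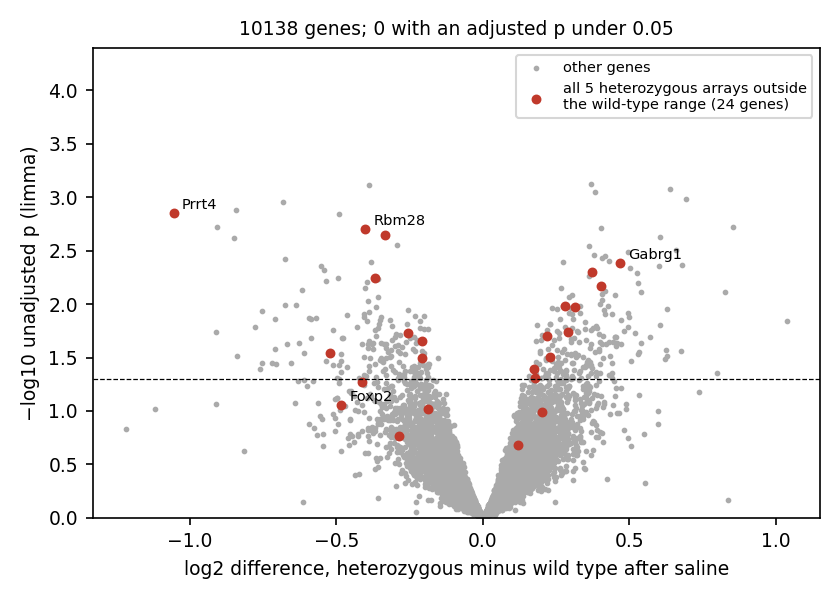
Each point is 1 of 10138 genes, with the log2 difference (heterozygous minus wild type after saline) on the x axis and the unadjusted significance by limma, as negative log10, on the y axis. Red marks the 24 genes for which all heterozygous arrays lay outside the range of the wild-type arrays; Prrt4 lies at -1.05, and 0 genes were called.

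Foxp2 itself was lower in heterozygotes. Of its 4 probes, 3 were detected on all 11 saline arrays, and ILMN_2701613 was detected on none of them. On the probe ILMN_2659660 the heterozygous log2 intensities were 8.43, 8.55, 8.51, 8.30 and 8.44, and those of wild type ran from 8.84 through a median of 9.07 to 9.20. The groups did not overlap. The heterozygous mean was 65.7% of the wild-type mean, a log2 difference of -0.61, with an adjusted p of 0.0032 in a two-sided exact permutation test, adjusted over the 3 detected probes. The unadjusted p behind it, 0.0022, is the smallest that 462 divisions of 5 and 6 arrays can give.

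The other two detected probes of Foxp2 gave like values. On ILMN_3140000, the brightest probe and the one that stands for the gene in all counts here, heterozygotes had 8.52, 8.48, 8.82, 8.82 and 8.42, and wild type had a lowest value of 8.94, a median of 9.10 and a highest value of 9.27. The groups were again apart, with heterozygotes at 71.5% of wild type (log2 difference -0.48, exact permutation test, adjusted p = 0.0032). On ILMN_2659663 the groups overlapped on 1 heterozygous array: the values were 8.22, 8.28, 8.13, 8.42 and 7.86 against 8.30 to 8.97 with a median of 8.85 (68.2% of wild type, log2 difference -0.55, exact permutation test, adjusted p = 0.0087). So each detected probe read a Foxp2 signal between 65.7% and 71.5% of wild type.

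The model across all genes gave Foxp2 less weight than the permutation test did. Its log2 difference of -0.48 ± 0.27 (SE) had a 95% interval from -1.05 to 0.08 and an unadjusted p of 0.088, which placed it at rank 666 of all genes. The spread of Foxp2 in that model includes the cocaine arrays, where its SD was 0.82 in heterozygotes and 0.41 in wild type, against 0.20 and 0.12 after saline. Fitted on the 11 saline arrays alone, the same difference had an unadjusted p of 0.00048, an adjusted p of 0.999 and rank 2 among 414 genes (4.08%) at an unadjusted p under 0.05. In the authors' processed values, which carry the sex of each animal, the brightest probe of heterozygotes stood at 70.2% of wild type in males and 69.2% in females. In bulk tissue, fewer cells that make a transcript and less transcript in each cell cannot be told apart.

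Foxp1 and Foxp4, the close relatives that pair with Foxp2 on DNA, did not pass the test. Foxp1, which is abundant in striatal projection neurons, had a log2 difference of 0.12 ± 0.20 (SE), with heterozygous arrays between 9.45 and 9.72 inside the wild-type range of 9.13 to 9.85. A second, dim Foxp1 probe went the other way, with a log2 difference of -0.61, and was detected on 1 heterozygous and 5 wild-type arrays. Foxp4 differed by 0.11 ± 0.10 and Foxp3 by -0.10 ± 0.08. Heterozygous and wild-type arrays overlapped for all 3 relatives on their brightest probes.

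**Figure D2:**
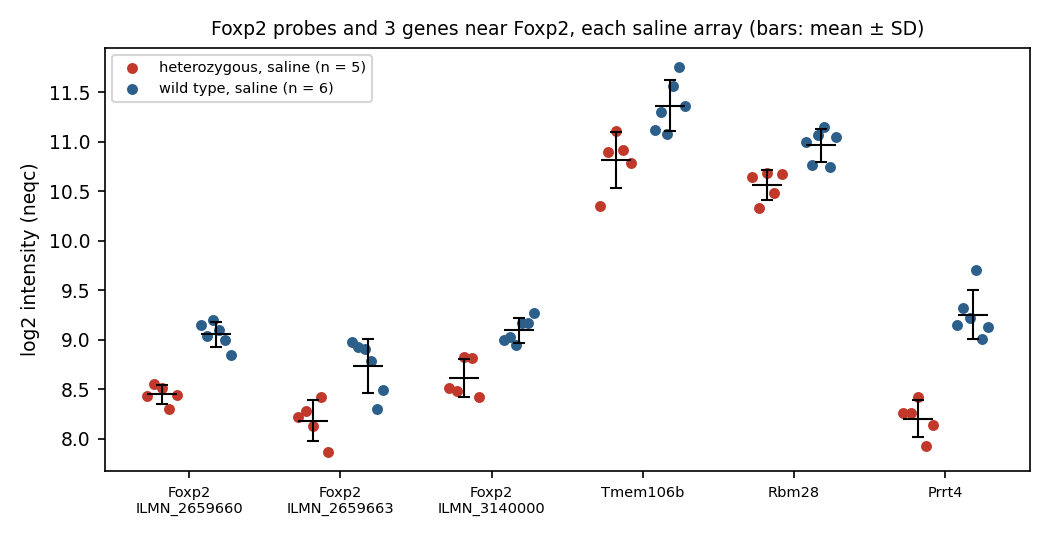
Each point is the log2 intensity of 1 saline array for the 3 detected Foxp2 probes and for Tmem106b, Rbm28 and Prrt4. These genes lie near Foxp2 in the order of measured genes on chromosome 6. Red points are heterozygous (n = 5), blue points wild type (n = 6), and bars give the mean ± SD. The groups do not overlap for 2 of the Foxp2 probes, Rbm28 and Prrt4.

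The lowest unadjusted p among the genes whose groups did not overlap belonged to Prrt4, a gene for a proline-rich transmembrane protein. Heterozygous arrays had log2 intensities of 8.26, 8.26, 8.42, 7.92 and 8.13, and wild-type arrays ran from 9.01 through a median of 9.19 to 9.71. The highest heterozygous array lay well below the lowest wild-type array. The heterozygous mean was 48.1% of wild type, a log2 difference of -1.05 ± 0.29 (SE, 95% interval -1.66 to -0.45), with an unadjusted p of 0.0014 and an adjusted p of 0.999 by limma on all 23 arrays. On the 11 saline arrays alone Prrt4 was the 1 gene of 10138 (0.00986%) called, with an adjusted p of 0.035 by limma. Its SD after cocaine was 0.77 in heterozygotes and 0.59 in wild type, against 0.19 and 0.24 after saline. In the 12 cocaine animals, which share no array with this comparison, Prrt4 was again lower in mean, with a log2 difference of -0.74 ± 0.28 (SE), an unadjusted p of 0.014 and an adjusted p of 0.691 by limma. There the groups overlapped, at 7.24 to 9.05 in heterozygotes against 8.01 to 9.34 in wild type. The heterozygous cocaine arrays lowest in Prrt4 (7.24, 7.36 and 7.64) were those highest in Tbr1, a gene of cortical neurons (10.25, 10.34 and 10.54). Those highest in Prrt4 (8.87 and 9.05) were lowest in Tbr1 (8.64 and 9.30). The part of tissue content in the value of Prrt4 after cocaine was not tested.

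Prrt4 lies on chromosome 6, the chromosome of Foxp2. In the order of measured genes it is the 27th after Foxp2, directly beside Rbm28, the 26th. Rbm28 encodes an RNA-binding protein of ribosome assembly. Its heterozygous values were 10.65, 10.33, 10.69, 10.49 and 10.67, and those of wild type ran from 10.75 through a median of 11.03 to 11.15, again with no overlap. Its log2 difference was -0.40 ± 0.11 (75.7% of wild type, unadjusted p = 0.0020 by limma), while after cocaine it was -0.00 ± 0.11. Tmem106b, which encodes a membrane protein of lysosomes, is the fifth measured gene before Foxp2. Its heterozygous values of 10.35, 10.90, 11.11, 10.92 and 10.79 overlapped the wild-type range of 11.08 to 11.76 on 1 array. It differed by -0.55 ± 0.17 (68.2% of wild type, unadjusted p = 0.0044 by limma) and after cocaine by -0.38 ± 0.17 (unadjusted p = 0.032). None of these differences passed the adjustment over all genes.

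After these genes were seen, all genes of chromosome 6 were counted. Of its 526 measured genes 34 (6.46%) had an unadjusted p under 0.05, against 3.56% of the genes of the other chromosomes and 3.71% of all genes, and this share was the highest of 20 chromosomes. Of the 24 genes whose groups did not overlap (0.237% of all genes), chromosome 6 held 5 among its 526, against 19 among the 9612 others. These 5 were Foxp2, Prrt4, Rbm28, Trh and Slc25a18. Foxp2 is the mutated gene, Prrt4 and Rbm28 prompted the count, and these numbers are a description. Within 30 measured genes of Foxp2, which on one side reaches the first measured gene of the chromosome, 8 of 60 genes (13.3%) had an unadjusted p under 0.05. Of these 8, Prrt4, Rbm28, Tmem106b, Samd9l and Gng11 were lower in mean and Peg10, Pdk4 and Rnf148 higher. Prrt4, Rbm28 and Tmem106b prompted the count and are included in the shares of the chromosome and of the window. Gng11 and Rnf148 were detected on 1 heterozygous array each, and Peg10 on 4 heterozygous and 1 wild-type array. After cocaine 4 of the 8 had an unadjusted p under 0.05: Prrt4 and Tmem106b with the same sign, and Samd9l (-0.34 after saline and 0.39 after cocaine) and the dim Peg10 with the opposite sign. After cocaine the share of chromosome 6 was also 6.46% against 6.65% of all genes, and ranked 14th among chromosomes; the difference between the injections in this share was not tested. The share after saline rested in part on single arrays: without wild-type array 7 it was 3.8%, against 2.76% of other genes. The position of these genes beside the mutated locus and the genotype itself cannot be told apart in this design.

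**Figure D3:**
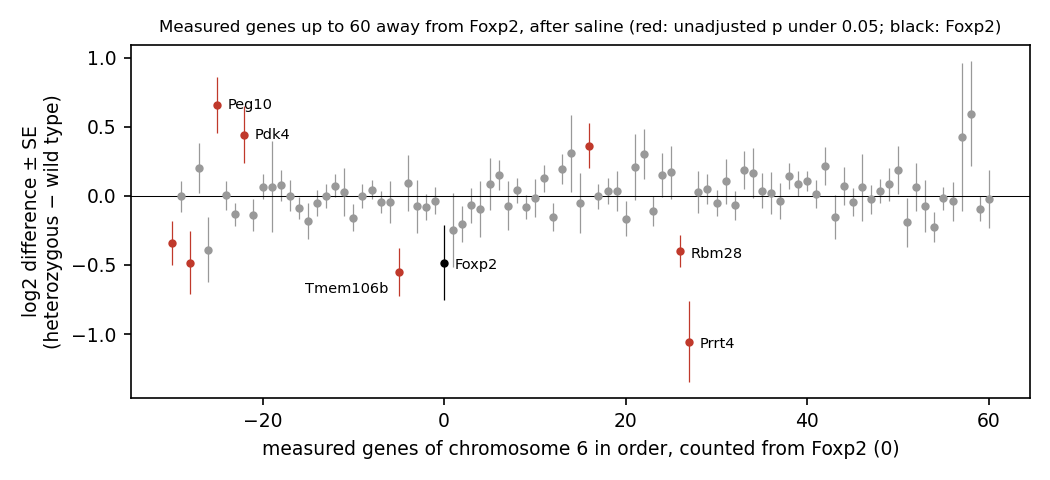
Each point is the log2 difference ± SE (heterozygous minus wild type after saline) of a measured gene of chromosome 6 near Foxp2, in gene order counted from Foxp2 at 0; 30 measured genes lie before it. Red marks an unadjusted p under 0.05 by limma, which Prrt4 at -1.05, Tmem106b at -0.55 and Rbm28 at -0.40 reached.

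The upstream sequences of Tmem106b and Prrt4 are shown because both genes were lower in heterozygotes of both injections. Each run is the 250 bases before the gene's start, from RefSeq on the build GRCm38.p6, 5′ to 3′ on the gene's own strand: chr6:13069509-13069758 on the plus strand for Tmem106b and chr6:29179585-29179834 on the minus strand for Prrt4.
Tmem106b: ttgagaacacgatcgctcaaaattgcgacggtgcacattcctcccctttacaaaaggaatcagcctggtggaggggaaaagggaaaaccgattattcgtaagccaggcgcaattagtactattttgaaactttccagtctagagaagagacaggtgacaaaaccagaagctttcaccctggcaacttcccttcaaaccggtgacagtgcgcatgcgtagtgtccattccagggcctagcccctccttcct
Prrt4: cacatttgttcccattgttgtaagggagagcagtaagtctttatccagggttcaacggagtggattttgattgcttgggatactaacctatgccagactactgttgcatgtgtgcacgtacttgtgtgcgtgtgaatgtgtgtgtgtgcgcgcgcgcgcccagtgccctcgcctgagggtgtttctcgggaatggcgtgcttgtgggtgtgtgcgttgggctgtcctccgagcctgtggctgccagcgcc
Both were searched on both strands for 3 short motifs of the forkhead type and held 0 matches, so no letters are in capitals. The first motif searched was TGTTTAC, held by 3.17% of 32851 promoters of the same length. The second motif searched was TATTTAC, held by 2.73% of those promoters. The third motif searched was TATTTAT, held by 5.17%, and 10.3% held at least one of the motifs. The absence of a match says only that these letters are not in these windows.

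The 10 lower genes with the smallest p, among genes detected on every array of at least 1 saline group, were Prkd1, Nktr, A930011G23Rik, Prrt4, Gm38413, Rbm28, 2700049A03Rik, Pdzrn3, Zfp385b and Cdhr1. This rule can be met through the brighter group alone, and of the 10 lower and 10 higher genes 15 were detected on all 11 saline arrays. The log2 differences of the lower genes ran from -0.29 for Zfp385b to -1.05 for Prrt4, and none passed the adjustment. Prkd1, which encodes protein kinase D1, had heterozygous values of 7.53, 7.18, 7.40, 7.39 and 7.60 against 7.59 to 7.94 in wild type, with a median of 7.81. The groups met on 1 array, and the difference was -0.39 ± 0.10 (SE). Pdzrn3, a ubiquitin ligase of the synapse at the muscle, had 8.22, 8.14, 7.65, 8.17 and 8.69 against 8.60 to 9.73 (median 8.83). The groups overlapped on 1 heterozygous array, and it differed by -0.85 ± 0.25 after saline and by 0.33 ± 0.24 after cocaine. Nktr, a cyclophilin-related protein, differed by -0.68 ± 0.18. A930011G23Rik was detected on 1 heterozygous and 6 wild-type arrays, so its lower side is near background. Cdhr1, a cadherin known from photoreceptors and olfactory neurons, had heterozygous values of 7.84, 8.01, 6.68, 7.88 and 8.03 against 7.91 to 8.62, with overlap on 2 arrays, and its log2 difference of -0.67 was -0.42 without heterozygous array 14.

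The 10 higher genes by the same rule were Tmem63a, Fzd10, Rims2, Pofut2, Ablim3, Tcf7l1, Yju2, Psmd9, Vps37d and Gabrg1, with log2 differences from 0.27 for Vps37d to 0.85 for Pofut2, whose wild-type level is near background. Both Fzd10, a receptor for Wnt proteins, and Tcf7l1, a transcription factor of the Wnt pathway, were among them. Fzd10 had 7.22, 6.85, 7.45, 7.50 and 7.03 against 5.79 to 6.99 (median 6.71) and a difference of 0.64 ± 0.17, with overlap on 1 array and detection on 4 wild-type arrays. Tcf7l1 differed by 0.36 ± 0.11. Rims2, a scaffold of the presynaptic active zone, had 9.89, 10.15, 10.09, 9.95 and 9.71 against 9.32 to 9.84 (median 9.56). The groups overlapped on 1 heterozygous array. It differed by 0.38 ± 0.10, while its dimmer second probe went the other way by -0.20. Tmem63a, a mechanically gated ion channel, differed by 0.37 ± 0.10 on its brighter probe and by 0.06 on its second. Psmd9, a chaperone of proteasome assembly, differed by 0.38 ± 0.12, and its second probe, detected on 1 heterozygous array, by -0.17.

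The remaining higher genes were Ablim3, an actin-binding protein, Pofut2, which adds fucose to secreted proteins, Yju2, a splicing factor, and Vps37d, a subunit of the endosomal ESCRT-I complex. Pofut2 and Ablim3 were detected on all 5 heterozygous and on 2 wild-type arrays, so their lower side is near background. Vps37d was the 1 higher gene with an unadjusted p under 0.05 after cocaine as well. Its heterozygous values were 8.12, 8.23, 8.16, 8.06 and 8.33 against 7.81 to 8.09 (median 7.87), with overlap on 1 array, and the differences were 0.27 ± 0.09 after saline and 0.32 ± 0.08 after cocaine.

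**Figure D4:**
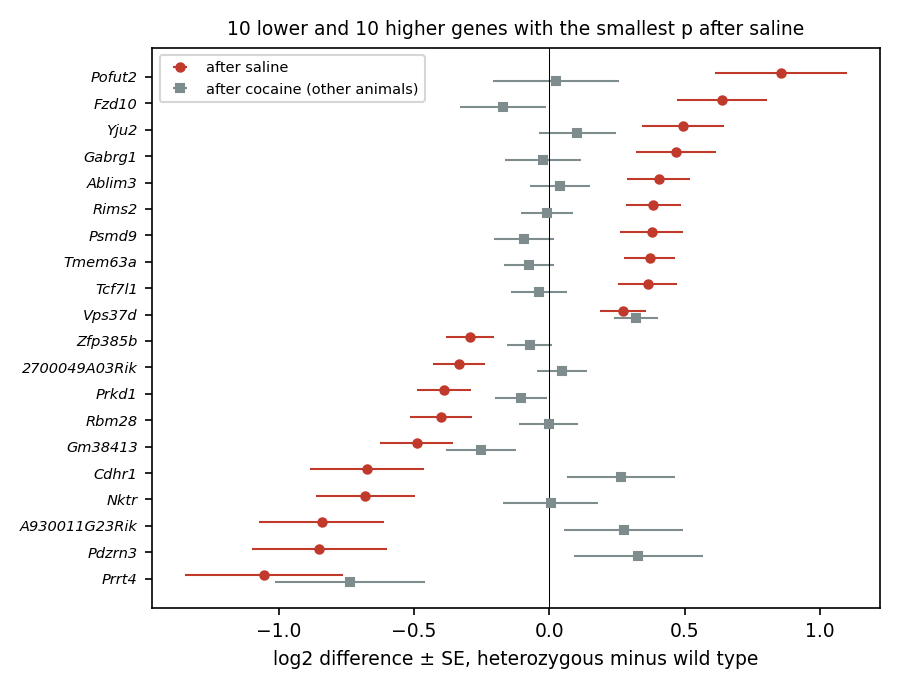
The log2 difference ± SE, heterozygous minus wild type, is plotted for the 10 lower and 10 higher genes with the smallest p after saline, as red circles for saline and grey squares for cocaine (other animals). The saline values chose the genes; after cocaine 9 of 20 had the same sign, and Prrt4 and Vps37d also had an unadjusted p under 0.05.

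Read by overlap in place of the model, the arrays gave 24 genes (0.237%) for which every heterozygous array lay on one side of every wild-type array, 12 above (0.118%) and 12 below (0.118%). Of the 462 divisions of 5 and 6 arrays, 1 places all heterozygous arrays on a given side, a share of 0.0022. The share of genes found on each side was no larger than that, so these counts are a description. For Eef1aknmt, Foxp2, Emcn, Ppp1r15a, Oprk1 and Lrrn3 the unadjusted p by limma was 0.053 to 0.21. Below were Prrt4, Rbm28, 2700049A03Rik, Fbxo27, Marchf2, Plec, Trh, Chgb, Eef1aknmt, Foxp2, Emcn and Oprk1. Trh, the precursor of thyrotropin-releasing hormone, had 7.49, 7.12, 7.67, 7.81 and 7.23 against 7.86 to 8.17 (median 7.98), a difference of -0.52 ± 0.22. Chgb, which encodes chromogranin B of dense-core vesicles, differed by -0.21 ± 0.09. Oprk1, the receptor for dynorphin, had 8.14, 8.08, 8.10, 8.02 and 8.04 against 8.26 to 8.52 (median 8.33). Its difference of -0.29 ± 0.20 after saline stood beside -0.39 ± 0.19 after cocaine. Emcn, a glycoprotein of endothelial cells, differed by -0.19 ± 0.11, beside a lower mean of all measured endothelial and mural markers given below, whose part in it was not tested.

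The 12 genes above were Gabrg1, Pigyl, Nr2e1, Qtrt1, Lratd1, Snu13, Sco1, Slc25a18, Qdpr, Trappc8, Ppp1r15a and Lrrn3. Gabrg1, the gamma-1 subunit of the GABA-A receptor, had the largest difference of them, with 7.98, 7.95, 8.23, 8.08 and 8.01 against 7.20 to 7.90 (median 7.57). Heterozygotes stood at 138% of wild type (0.47 ± 0.15), and after cocaine the difference was -0.02 ± 0.14. Nr2e1, a nuclear receptor of neural stem cells and astrocytes, differed by 0.40 ± 0.14. The smallest differences were 0.12 for Lrrn3, a leucine-rich repeat membrane protein, and 0.17 for Qdpr, which regenerates the cofactor of tyrosine hydroxylase. No gene of either set passed the adjusted test.

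No gene of a chosen list tied to Foxp2 by earlier work passed the adjusted test. That follows from the 0 of 10138 genes called, here and for each list below. Of 21 listed genes reported as targets or linked to Foxp2, 14 were measured, 0 passed the test, 7 were higher and 7 lower, and their median log2 difference of -0.0051 stood beside 0.007 over all genes. Cntnap2, a neurexin-family adhesion protein, had 11.85, 12.16, 12.22, 12.02 and 12.23 against 11.76 to 12.20 (median 11.99), a difference of 0.12 ± 0.12. Mef2c, a transcription factor that limits synapse number, had 12.24, 12.50, 12.17, 11.97 and 12.35 against 12.02 to 12.54 (median 12.44), a difference of -0.12 ± 0.13. The groups overlapped for both genes. Vldlr, a reelin receptor, differed by -0.01 ± 0.08 and the retinoic acid receptor gene Rarb by -0.04 ± 0.16. Nrn1, the gene of the membrane-anchored growth factor neuritin, was the 1 member with an unadjusted p under 0.05, at -0.75 ± 0.34. Its heterozygous values of 10.50, 10.56, 8.65, 10.18 and 10.69 lay below or in the wild-type range of 10.46 to 11.37, and without heterozygous array 14 the difference was -0.39 (unadjusted p = 0.20). Of 16 partners and corepressors of Foxp2, 11 were measured and 0 passed the test, with a median of -0.06. Tbr1 was the lowest at -0.54 ± 0.38, and this became -0.14 without heterozygous array 14.

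Genes of GABA signalling, the transmitter of spiny neurons, were measured for 13 of 21 members. None passed the test, 9 were higher and 4 lower, and the median was 0.06. Among the synthesis enzymes, Gad1 stood at 0.00 ± 0.10 and Gad2 at 0.03 ± 0.09. The receptor subunits spread more widely, from Gabrg1 at 0.47 to Gabrg3, another gamma subunit, at -0.65 ± 0.29. Gabrg3 had 7.27, 7.32, 7.97, 6.43 and 6.54 against 6.58 to 8.49 (median 7.94), so the groups overlapped over much of their range. Of 22 glutamate receptor and scaffold genes 15 were measured, 0 passed, and the median was -0.0050, with Homer1 at -0.19 ± 0.10 and Grik1 at 0.22 ± 0.15.

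Dopamine receptors and the cAMP machinery they control also gave 0 called genes of 14 measured, 3 higher and 11 lower. Their median was -0.05 after saline and -0.24 after cocaine. The D1 receptor gene Drd1 differed by -0.09 ± 0.10 and the D2 receptor gene Drd2 by 0.20 ± 0.18. Rgs4, which shortens G-protein signals, had 12.59, 12.07, 12.43, 12.54 and 12.40 against 12.53 to 12.85 (median 12.64), a difference of -0.25 ± 0.10 with an unadjusted p of 0.021. Of 14 measured neuropeptide and opioid receptor genes 0 passed, 5 were higher and 9 lower, and the median was -0.02. The main spiny neuron peptides overlapped between the groups: Penk (enkephalin) at -0.03 ± 0.18, Pdyn (dynorphin) at 0.10 ± 0.13 and Tac1 (substance P) at -0.00 ± 0.11. Cartpt, another accumbens peptide, differed by 0.22 ± 0.15.

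No gene that neurons switch on with activity passed the test. Of 13 measured immediate-early transcription factors 0 passed, with a median of -0.05, and of 17 measured effector genes 0 passed, with a median of -0.03. Fos differed by -0.01 ± 0.23, Egr1 by -0.09 ± 0.08 and the synaptic effector Arc by -0.01 ± 0.17. Nr4a2, an inducible nuclear receptor, had a difference of -0.51 ± 0.30 and Dusp5, a MAP kinase phosphatase, one of 0.27 ± 0.13. Of 19 measured genes that respond to glucocorticoids, the stress hormones, 0 passed and the median was 0.05. Klf9 had 13.74, 13.67, 13.80, 13.86 and 13.79 against 13.82 to 14.05 (median 13.90), a difference of -0.15 ± 0.07. Pdk4, a kinase of pyruvate metabolism that also lies near Foxp2, had 8.45, 8.46, 8.40, 9.08 and 8.70 against 7.96 to 8.88 (median 8.05), a difference of 0.44 ± 0.21. Leaving out 1 array gave 0.33 (without heterozygous array 18, unadjusted p = 0.14 by limma) to 0.58 (without wild-type array 17).

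Of 36 axon guidance genes 27 were measured, 0 passed, and the median was 0.03. Robo2, a Slit receptor, had 8.50, 9.17, 8.96, 9.04 and 9.05 against 8.83 to 9.44 (median 9.36), a difference of -0.34 ± 0.14. Plxnd1, a semaphorin receptor, differed by -0.31 ± 0.14. Both had an unadjusted p under 0.05 and no other member did. Retinoid genes (9 measured, median -0.04, Rxrg at -0.25 ± 0.19), vesicle fusion genes (19 measured, median -0.02, Stx1a at -0.31 ± 0.16 and Syn3 at -0.38 ± 0.20), tubulins and motor proteins (26 measured, median -0.02, Tubb2b at 0.15 ± 0.08 and Map2 at 0.13 ± 0.07) and respiratory chain genes (17 measured, median 0.00, Sdhb at 0.12 ± 0.07 and Atp5a1 at -0.12 ± 0.09) likewise held 0 called genes. Other Map2 probes ran from -0.49 to 0.08. Of 7 measured sex-linked genes 0 passed, with Ddx3x at 0.18 ± 0.15 and Kdm6a at 0.09 ± 0.17. Over all 29 lists 13 of 329 measured genes (3.95%) had an unadjusted p under 0.05, a share near the 3.71% of all genes.

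Markers of cell types were read as a score, the mean log2 deviation of a list's genes from the mean of the 23 arrays. Over all 10138 genes 4813 were lower in mean and 5325 higher. Members of a list were read on the same arrays and are not separate observations, so their counts of direction are a description. Of 14 measured markers of striatal projection neurons 12 were lower in mean and 0 passed, and the score was 0.14 ± 0.07 (SD, n = 5) in heterozygotes and 0.18 ± 0.08 (SD, n = 6) in wild type. Its Rgs9, a G-protein regulator, differed by -0.13 ± 0.14 on the brighter and by -0.67 on the dimmer probe. The D1 list had a median of 0.08 and the D2 list of 0.04, with 0 genes called in either. After cocaine the medians were -0.26 for the projection neuron list, -0.26 for the D1 list and -0.41 for the D2 list. Slc35d3, a transporter that D1 neurons need for receptor traffic, had 10.50, 10.32, 10.54, 10.71 and 10.59 against 10.68 to 11.03 (median 10.81), a difference of -0.29 ± 0.14, while Isl1, a transcription factor of D1 neurons, was at 0.23 ± 0.21 and Upb1 at 0.12 ± 0.25.

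All 8 measured markers of excitatory cortical neurons were lower in mean, with a median of -0.24 and 0 called. Their scores were -0.40, -0.09, -1.32, -0.47 and -0.26 in heterozygotes and ran from -0.66 to -0.02 in wild type, so heterozygous array 14 stood below every other saline array. On that array Slc17a7, the vesicular glutamate transporter of cortical neurons, was at 8.50, against 10.13 to 11.11 on the other heterozygous arrays. Without array 14 the list's median was -0.09, the difference of Slc17a7 went from -0.51 to -0.10, and the count of genes called stayed at 0. After cocaine the list's median had the opposite sign, at 0.42. Of the markers of this list, Neurod1 was detected on 0 of the 11 arrays and Neurod6 on 3 in each group. Nrn1, Cdhr1 and Tbr1, described above, were also lowest on array 14, as were Pdzrn3 (7.65) and Stx1a (10.69). Leaving out each array in turn gave -0.98 to -0.71 for Pdzrn3 and -0.38 to -0.19 for Stx1a. The part of cortical tissue in the values of these genes was not tested beyond leaving arrays out.

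Of the septal markers 5 of 6 were higher in mean, with a median of 0.35 and scores of 0.06 to 0.39 in heterozygotes against -0.33 to 0.41 in wild type. Zic1, a transcription factor of the septum, had 11.33, 11.55, 11.50, 11.34 and 11.09 against 10.40 to 11.41 (median 10.86), a difference of 0.46 ± 0.19, and Dlk1 differed by 0.49 ± 0.27. Interneuron markers had a median of 0.17 and scores of -0.13 to 0.17 against -0.29 to -0.05. Calb2, the gene of calretinin, had 10.75, 10.93, 10.69, 10.42 and 10.38 against 9.32 to 10.58 (median 10.11), a difference of 0.54 ± 0.22 that both its probes gave. After cocaine Calb2 differed by 0.47 ± 0.21 in the same direction. Chodl, a marker of a rare somatostatin type, differed by 0.29 ± 0.19 after saline and by 0.02 ± 0.18 after cocaine, and the interneuron list's median after cocaine was 0.02. The septal list's median after cocaine was 0.04, and Dlk1 then had a difference of -0.45 ± 0.26.

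All 12 measured endothelial and mural markers were lower in mean, with a median difference of -0.12. Their scores lay between -0.16 and -0.05 in heterozygotes and between -0.04 and 0.08 in wild type, without overlap. The scores of all other lists overlapped between the groups. After cocaine the median of the endothelial and mural list was 0.03. Single members were small, such as Slco1a4, a transporter of the blood-brain barrier, at -0.14 ± 0.10 and Rgs5, a pericyte gene, at -0.16 ± 0.13, and 0 were called. Astrocyte (median 0.02, Gjb6 at 0.21 ± 0.12 and Sox9 at -0.12 ± 0.10), oligodendrocyte (0.03, Mbp at -0.09 ± 0.07 and Cnp at 0.12 ± 0.11), precursor (0.02, Pdgfra at 0.14 ± 0.10) and microglia markers (-0.01, Trem2 at 0.25 ± 0.13 and Siglech at -0.27 ± 0.15) stood near the median of all genes. Choroid plexus markers had a median of 0.17 over 3 measured genes, with Clic6 at 0.28 ± 0.21 and Kl at 0.17 ± 0.18. Blood markers had a median of -0.11, with Hbb-bt, a beta-globin, at -0.11 ± 0.34. Neu4 and Alas2 were not well above background on any heterozygous array, and no fold is given for them.

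**Figure D5:**
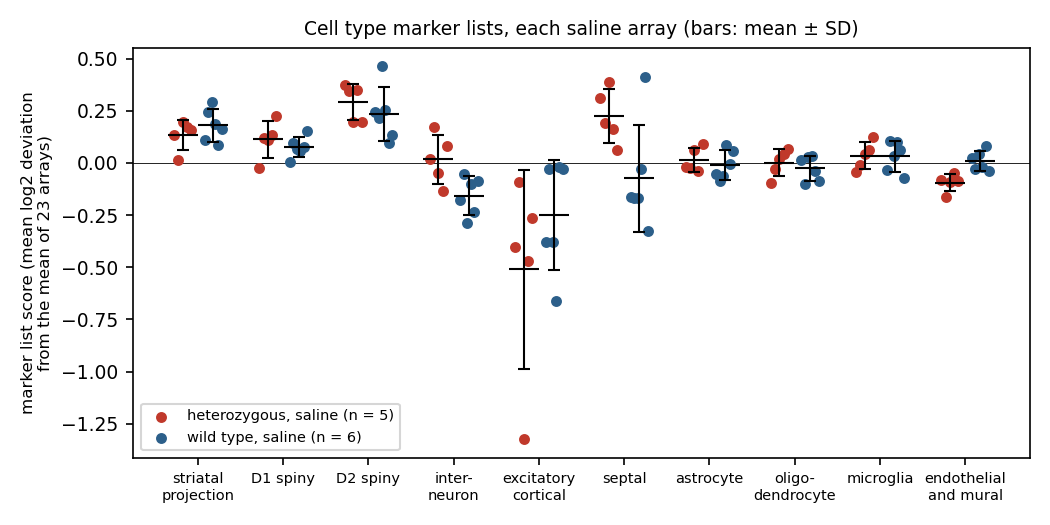
Each point is the score of 1 saline array for a cell type marker list (mean log2 deviation from the mean of 23 arrays); red points are heterozygous (n = 5), blue points wild type (n = 6), and bars give the mean ± SD. Heterozygous array 14 lies at -1.32 for excitatory cortical markers, and the heterozygous endothelial scores (-0.16 to -0.05) lie below the wild-type ones (-0.04 to 0.08).

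The genotype difference after saline was set against that after cocaine in the same model. The interaction gave 0 of 10138 genes (0%) at an adjusted p under 0.05 by limma, with 488 genes (4.81%) at an unadjusted p under 0.05 and a smallest adjusted p of 0.927. For Foxp2 the difference of the differences was 0.05 ± 0.38 (SE), and its own values were -0.48 after saline and -0.53 after cocaine. The value after cocaine had an unadjusted p of 0.052 by limma. The groups then overlapped, at 7.02 to 9.22 in heterozygotes against 7.89 to 8.94 in wild type. The heterozygous cocaine arrays lowest in Foxp2 (7.02, 7.22 and 7.61) were also those highest in Tbr1. The part of tissue content in the value of Foxp2 after cocaine was not tested. Among the 20 genes chosen by their saline p, 9 had the same sign after cocaine, and 14 had an unadjusted interaction p under 0.05. Among the 15 of them detected on all saline arrays the counts were 6 and 10. Since saline values chose these genes, these counts are a description. Prrt4 was lower in mean in both sets of animals, with an interaction of -0.32 ± 0.40.

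Sex was followed in the authors' processed values alone, because the raw columns do not name the animal. Among the raw saline arrays, Xist was dim (4.66 to 5.39) on arrays 1, 2, 5, 6 and 7. It was bright (11.72 to 12.10) on arrays 14, 15, 17, 18, 20 and 22. Sex and the order of array numbers therefore went together on the saline arrays. With sex as a covariate, 0 of 9274 genes were called by limma, and Prrt4 differed by -1.09 and Rbm28 by -0.42. The log2 difference of Prrt4 was -1.01 in males and -1.17 in females, and that of the brightest Foxp2 probe was -0.51 and -0.53. The Foxp2 probe ILMN_2659663 gave -0.72 in males and -0.41 in females. Other genes lay further apart, with Nrn1 at -0.17 in males and -1.22 in females. Tbr1 stood at -0.13 and -0.86, Slc17a7 at -0.12 and -0.71, and Cdhr1 at -0.45 and -0.91. The interaction of genotype and sex gave 0 called genes, 173 at an unadjusted p under 0.05 and a smallest adjusted p of 1 by limma.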

How the data were processed

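Nucleus accumbens RNA of 23 mice was read on 1 array each. The deposited intensity of each probe is non-normalized per the file headers, and a detection p-value stands beside each intensity in the deposited table. The authors' log2 values, deposited separately, were quantile normalized, since their sorted columns differ by at most 0.0011. The software behind both is not named in the labels. Raw columns name genotype, injection and an array number, not the animal, so sex and replicate number were used with the authors' values alone.

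Intensities were normalized with neqc (limma 3.58.1, R 4.3.3; offset 16). A probe entered where its detection p was below 0.01 on 5 or more arrays (18509 probes, 2645 without a single gene), and the brightest probe stood for each of 10138 genes. Gene names came from the platform annotation (34885 probes with 1 gene, 18 with several, 10378 with none). A model of 4 group means used all arrays and left 19 residual degrees of freedom, and gave two-sided moderated tests and Benjamini-Hochberg adjustment over all probes; Foxp2 probes were also tested by exact permutation. The titles call the samples of a group biological replicates. Scripts were tested on simulated data.

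Named genes were the 10 higher and 10 lower by p, Foxp1, Foxp2 and Foxp4, and the 2 members with the smallest p of each of 29 lists. Tmem106b and the other genes near Foxp2, the genes whose groups did not overlap, and further members quoted beside a list were chosen after their values were seen. The comparison, the lists and their members were chosen with earlier results of these data known. Alternatives were other normalizations, filters, fits, blocks, the authors' values, single sexes and leaving out each array.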

Additional observations from a re-analysis of the deposited data

Results flagged for a closer look

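In 216 sets of values (5 heterozygous or 6 wild-type saline arrays for 77 named genes, 2 further Foxp2 probes and 29 list scores), 13 held an array far from the others by Dixon's test, which chance gives in about 1 of 20 sets. Heterozygous array 14 was set apart for Cdhr1 (log2 intensity 6.68, next lowest 7.84), Nrn1 (8.65, next lowest 10.18), the activity-regulated effector score (-0.56, next lowest -0.29) and the FOXP family score (0.11, next highest 0.06). Heterozygous array 18 stood high for Yju2 (7.88, next highest 7.20) and for the glucocorticoid-responsive score (0.11, next highest 0.01). Heterozygous array 22 stood low for Alas2 (5.37, next lowest 5.81), which was at background on all heterozygous arrays.

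Wild-type array 17 stood high for Pdk4 (8.88, next highest 8.08) and low for the GABA score (-0.13, next lowest 0.01). Wild-type array 15 stood low for Dusp5 (7.14, next lowest 7.36) and Stx1a (11.09, next lowest 11.41), array 2 for Robo2 (8.83, next lowest 9.33) and array 5 for Siglech (7.84, next lowest 8.48).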

How the results depend on the processing

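The count of 0 called genes held under every alternative run except the fit of the 11 saline arrays alone, which called 1 gene, Prrt4 (adjusted p = 0.035 by limma; 0.347 to 1 in the other 25 fits); unadjusted counts for leaving out 1 array ran from 285 to 433 genes, and were 742 of 19057 genes with no filter, 636 of 15864 probes with all probes counted and 212 in females alone, against 376. The interaction with cocaine stayed at 0. Foxp2 kept its direction in all alternatives; without 1 array its 3 probes ran from -0.65 to -0.57, from -0.64 to -0.47 and from -0.54 to -0.43. Within blocks of 6 array numbers its exact permutation test lost ILMN_2659663 (-0.52, adjusted p = 0.056), while the other two probes kept an adjusted p of 0.042; the cause was not tested. The single-sex tests could not pass: males alone at -0.66, -0.72 and -0.51, females alone at -0.59, -0.41 and -0.53 (smallest possible p 0.1 in each sex). With the replicate block of the authors' values the probes gave -0.67, -0.63 and -0.47 at the smallest p it allows, 0.0625; same-numbered animals deviated together with r = -0.09 to 0.42 and 2 of 5 matched best with their own number, so the numbers were not taken as pairs, and 0 genes were called under the block.

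Without wild-type array 7 the share of chromosome 6 genes at an unadjusted p under 0.05 was 3.8%, in males alone 3.81% and in females alone 3.59%, each above the share of other genes (2.76%, 2.9% and 2.22%). This share was examined after the data were seen. Leaving out 1 array turned the sign of the median of 14 of 29 lists, among them Foxp2 partners (-0.06 to 0.015), immediate-early (-0.11 to 0.015), effector (-0.09 to 0.015) and neuropeptide genes (-0.04 to 0.017), and moved that of D1 between 0.03 and 0.12. In males alone list medians moved to -0.11 (FOXP family), 0.15 (glucocorticoid), -0.20 (retinoid), -0.15 (striatal projection), -0.018 (D1), 0.14 (oligodendrocyte precursor) and 0.038 (vesicle fusion), and in females alone to 0.028 (striatal projection), -0.0013 (D1) and -0.039 (sex-linked). Uncalled differences changed sign for Foxp1 (-0.13), Pde7b (-0.0063), Cnp (-0.0020) and Slco1a4 (0.0029) in males, for Rgs9 (0.028) and Kdm6a (-0.039) in females, and for Hbb-bt without wild-type array 2 (0.052) or heterozygous array 22 (0.0063); its values without 1 array ran from -0.28 to 0.052. The cause was not tested beyond the smaller number of arrays in these fits. Of 31 named genes with several tested probes, 7 had a probe of the opposite sign.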

Other observations

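Genes with an unadjusted p under 0.05 in both sets of animals numbered 37 (0.365% of genes, 9.84% of the 376 after saline and 5.49% of the 674 after cocaine), of which 11 were lower in both, 14 higher in both and 12 of opposite sign. These genes were chosen after their values were seen, none passed an adjusted test, and both differences come from 1 model. Examples lower in heterozygotes of both injections were Prrt4, Tmem106b and Slc35d3, described above, and Itga11, a collagen-binding integrin (-0.38 after saline and -0.36 after cocaine), and Mccc1, an enzyme of leucine breakdown (-0.31 and -0.39). Slc35d3 belongs to the D1 list, whose median after cocaine was -0.26. The part of tissue content in the values of Slc35d3, Prrt4 and Tmem106b was not tested. Examples higher in both were Vps37d and Calb2 and also Atg4d, a protease of autophagy (0.42 and 0.39), Auh, another enzyme of leucine breakdown (0.43 and 0.28), Hopx, a homeodomain protein (0.46 and 0.46), Grin3a, an NMDA receptor subunit (0.31 and 0.32), and Txnrd2, a mitochondrial thioredoxin reductase (0.26 and 0.41). After saline Atg4d was detected on 3 heterozygous and 1 wild-type array and Auh on 4 and 3. Examples of opposite sign were Il6st, the shared receptor subunit of the interleukin-6 family (0.44 and -0.35), Samd9l (-0.34 and 0.39), Smyd5 (0.26 and -0.31), Atxn2l (-0.36 and 0.25) and Socs2, an inhibitor of cytokine signalling (-0.26 and 0.22).

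The genes that differed by more than 1 log2 unit in mean were Lbhd2, higher by 1.04 ± 0.39 (SE) and detected on 2 wild-type arrays, and Prrt4, Ccl21a and Pdia3, lower. Ccl21a, a chemokine detected on 2 heterozygous arrays, differed by -1.12 ± 0.64, and Pdia3, a disulfide isomerase of the endoplasmic reticulum, by -1.22 ± 0.82 with an SD of 3.18 in heterozygotes and 0.27 in wild type.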
